A study of Mus musculus with 2 samples.

Results

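The cells described here are mononuclear phagocytes of mouse alveolar bone that devoted a large share of their messenger RNA to major histocompatibility complex (MHC) class II. They were chosen by measured values. A barcode had to hold at least 200 genes and at most 5% mitochondrial unique molecular identifiers (UMIs, each standing for 1 captured transcript). At least 1.5% of its UMIs had to come from H2-Aa, H2-Ab1, H2-Eb1 and Cd74 together. Shares of other genes kept out neutrophils (S100a8 and S100a9 under 5%), granulocyte precursors (Elane, Mpo, Prtn3 and Ctsg under 1%), dividing cells (Mki67, Top2a, Birc5 and Ube2c under 0.04%), complement-rich macrophages (C1qa, C1qb and C1qc under 0.05%) and cells with any Cd79a UMI. By these limits 189 of 2835 cells were class II-high in the control library and 77 of 2052 in the library from orthodontic tooth movement (OTM).

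The study compared F4/80+CD11b+ cells, sorted from collagenase-digested alveolar bone, between control mice and mice whose left upper first molar was pulled forward for a week by a nickel-titanium coil spring tied to the incisors. All mice were male C57/B6 J animals aged 8 weeks, and no gene was altered in either group. Each condition had 1 droplet library (10x Genomics 3′ chemistry, v2), and the study divided its mice at random between the groups. Without replicate libraries no test between conditions could be made, and the intervals below (95%, exact) cover counting error only.

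Class II molecules are pairs of an alpha and a beta chain that show fragments of engulfed protein to CD4+ T cells. In the endoplasmic reticulum the pair is held by the invariant chain, the product of Cd74, and in endosomes the H2-DM dimer exchanges the last piece of that chain for antigen. Transcription of this gene family depends on the coactivator CIITA, which acts through a factor complex bound at the X and Y boxes of class II promoters. Dendritic cells, B cells and some macrophages carry class II constantly, and monocytes that enter a tissue can acquire it.

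The promoters of 4 class II genes are shown because their transcripts either chose the cells or accompanied the choice. They run from 250 bases before to 50 bases after the RefSeq start (GRCm38.p6) and are written on the strand of the gene. Capitals mark matches to the X box core (AGNAAC and GNTG with any 1 base between them) and the Y box (ATTGG), searched on both strands. H2-Aa lies at chr17:34287774-34288073 on the minus strand, H2-Eb1 at chr17:34305617-34305916, H2-DMb1 at chr17:34152941-34153240 and H2-DMb2 at chr17:34144999-34145298, these 3 on the plus strand.
H2-Aa: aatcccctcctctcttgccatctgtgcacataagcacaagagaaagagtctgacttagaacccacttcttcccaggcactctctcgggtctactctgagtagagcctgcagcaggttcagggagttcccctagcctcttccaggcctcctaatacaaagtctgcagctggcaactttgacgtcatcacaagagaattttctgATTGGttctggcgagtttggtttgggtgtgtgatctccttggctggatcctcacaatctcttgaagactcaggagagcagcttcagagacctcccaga
H2-Eb1: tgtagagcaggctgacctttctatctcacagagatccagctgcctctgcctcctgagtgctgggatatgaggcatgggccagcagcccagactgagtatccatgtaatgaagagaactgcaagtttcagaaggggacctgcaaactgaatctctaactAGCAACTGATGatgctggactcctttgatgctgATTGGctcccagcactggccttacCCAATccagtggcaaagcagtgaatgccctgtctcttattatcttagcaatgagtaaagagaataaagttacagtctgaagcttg
H2-DMb1: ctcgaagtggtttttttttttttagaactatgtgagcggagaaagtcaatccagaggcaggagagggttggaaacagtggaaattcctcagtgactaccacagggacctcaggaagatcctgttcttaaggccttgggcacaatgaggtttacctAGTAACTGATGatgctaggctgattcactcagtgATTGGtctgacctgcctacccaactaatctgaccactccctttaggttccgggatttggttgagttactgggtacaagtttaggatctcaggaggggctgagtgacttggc
H2-DMb2: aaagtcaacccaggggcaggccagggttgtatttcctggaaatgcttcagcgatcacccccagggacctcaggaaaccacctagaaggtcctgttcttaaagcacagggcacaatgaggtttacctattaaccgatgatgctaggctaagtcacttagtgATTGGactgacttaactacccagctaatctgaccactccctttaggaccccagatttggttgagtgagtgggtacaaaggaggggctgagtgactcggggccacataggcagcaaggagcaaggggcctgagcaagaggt
Of 32851 RefSeq windows of this length, 1.18% held the X box core, 37.4% the Y box and 0.384% both. H2-Eb1 held both, with its X box core starting 92 bases before the gene start and Y boxes 59 and 35 bases before it. H2-DMb1 had the same arrangement at 95 and 61 bases. The windows of H2-Aa and H2-DMb2 held only a Y box, 48 and 90 bases before the start. A match of letters is no measurement of binding. H2-Ab1 and Ciita were not among the 8 of 10 genes that matched.

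The class II share was continuous rather than split into 2 groups. In control the lowest share inside the limit was 1.503% and the highest outside was 1.497%, and in OTM these were 1.502% and 1.464%. Inside the limit, 19 control and 9 OTM cells lay under 2%, and outside it 42 and 10 cells lay at or above 1%. Most cells outside were far from the limit, with 741 of 945 control and 604 of 669 OTM cells under 0.1%. The median share was 4.75% in control and 3.51% in OTM, and 17 control and 3 OTM cells reached 10% or more.

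**Figure D1:**
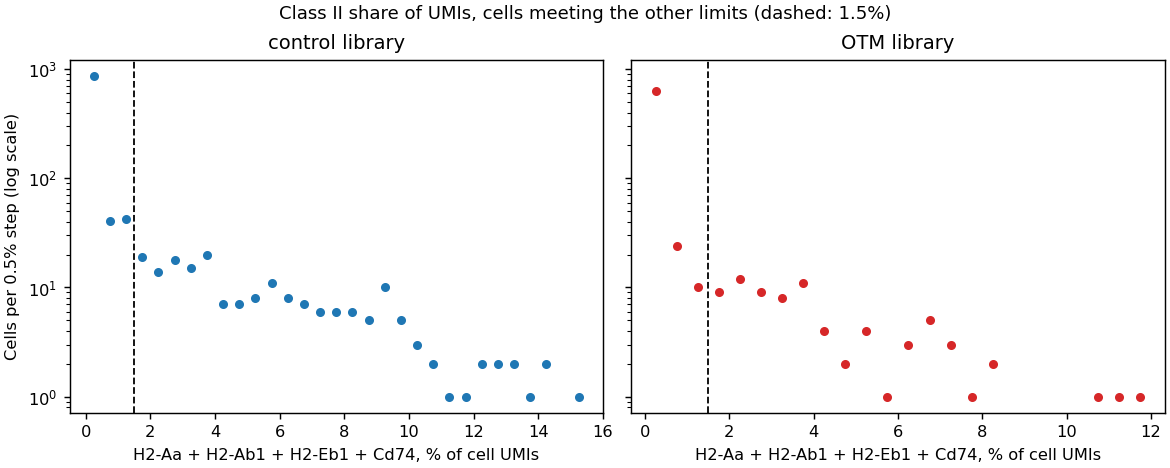
Number of cells (log axis) in each 0.5% step of the summed share of H2-Aa, H2-Ab1, H2-Eb1 and Cd74, for cells of each library that met every other limit, with the 1.5% limit dashed. Beyond a large group of cells near 0, the counts fell off gradually and had no gap at the limit, and the control cells reached 15.2%.

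The class II-high cells held 847032 UMIs in control and 511761 in OTM, with medians of 4149 and 6606 UMIs per cell. No barcode of these cells was shared between the libraries, against 6 shared among all barcodes. A doublet caller, Scrublet, marked none of them, although it called 0 of 2835 control cells in all and so may not have worked there. They are compared below with 898 control and 644 OTM class II-low cells, which met the same limits with less than 1.5% class II UMIs and fewer than 2 UMIs of Ace and Treml4, genes of nonclassical monocytes. Levels are CPM, the UMIs of a gene per 1000000 UMIs summed over a group of cells.

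The label MHC class II-high monocyte-derived cells was checked against its 4 markers. H2-Aa and Cd74 were part of the rule. Clec10a, a galactose-binding lectin of dendritic cells and macrophages, was found in 37.0% of the control and 29.9% of the OTM cells. Cd40, the receptor through which T cells stimulate antigen-presenting cells, was found in 42.3% and 54.5%. With each cell thinned to 1500 UMIs the shares with Cd40 were 23.8% (17.9 to 30.5) and 24.7% (15.6 to 35.8). Cells kept out of the class II-low cells for Ace and Treml4 numbered 47 in control and 25 in OTM. Thinned, they held Cd40 in 14.9% (6.20 to 28.3) and 24% (9.36 to 45.1). The intervals overlapped in both libraries, so Cd40 was not shown to be particular to class II-high cells. Among neutrophils, sorted along with these cells and at median depths of 3308 and 5825 UMIs, the shares were 2.42% and 2.21% for Clec10a and 2.93% and 3.57% for Cd40. Control C1q-positive cells, which the rule kept out, came closer. Among these 50 cells, at a median depth of 3735 UMIs, Clec10a was found in 30.0% (thinned 18.0%, against 21.7% in class II-high cells) and Cd40 in 28.0% (thinned 16.0%). Ccr2, the receptor that draws monocytes out of marrow, stood at 439 CPM in control and 489 CPM in OTM, against 486 and 487 CPM in class II-low cells and 41.8 and 66.1 CPM in neutrophils. So the cells carried both marker groups, and origin from monocytes was not measured. They are called class II-high cells here.

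The 4 genes of the rule are given as a description. Cd74 stood at 30305 CPM in control and 24193 CPM in OTM, H2-Aa (chr17:34282744-34287823, minus strand, GRCm38) at 10877 CPM in control and 9129 CPM in OTM, H2-Ab1 (chr17:34257689-34269419, plus strand) at 10941 CPM in control and 6843 CPM in OTM and H2-Eb1 (chr17:34305867-34316674, plus strand) at 3147 CPM in control and 1467 CPM in OTM. Since these genes chose the cells in each library, their ratios between the libraries only describe the chosen cells. The OTM level was 0.839 times (0.810 to 0.870) the control level for H2-Aa and 0.798 times (0.781 to 0.816) for Cd74, but 0.625 times (0.601 to 0.650) for H2-Ab1 and 0.466 times (0.429 to 0.506) for H2-Eb1. Every class II-high cell held H2-Aa, H2-Ab1 and Cd74, whereas 44 of 189 control and 17 of 77 OTM cells held no UMI of H2-Eb1, the beta chain of I-E. As background, C57BL/6 mice make no I-E alpha chain, so this beta chain has no usual partner in them.

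Against class II-low cells of the same library, the class II-high cells differed in few genes. Among 3488 genes outside the rule with at least 100 UMIs over both classes in each library, 55 (1.58%) were at least 2-fold higher in control and 95 (2.72%) in OTM, and 104 (2.98%) and 120 (3.44%) were at least 2-fold lower. In both libraries at once, 31 genes (0.889%) were higher and 46 (1.32%) lower. With each library centred on its median log2 ratio over all genes, -0.13 in control and -0.03 in OTM, the split was 45 higher and 35 lower. Since the class II share divided the cells, these differences describe what accompanied it and are not tests.

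A single gene (0.0287%), Ecm1, an extracellular matrix protein chosen here after its values were seen, was at least 2-fold lower in control, at 4.72 against 33.8 CPM, and at least 2-fold higher in OTM, at 106 against 45.8 CPM.

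The partners of the class II chains in the antigen pathway were higher. H2-DMb1 (chr17:34153072-34160230, plus strand), the beta chain of the peptide exchanger, stood at 846 CPM in control and 639 CPM in OTM in class II-high and 109 and 86.0 CPM in class II-low cells, higher by 7.74-fold (6.86 to 8.74) in control and 7.43-fold (6.404 to 8.62) in OTM. It was present in 169 of 189 and 68 of 77 class II-high cells, so most of them carried it. H2-DMa (chr17:34119541-34139101, plus strand), the alpha chain, was higher by 3.25-fold (2.95 to 3.57) in control and 4.18-fold (3.65 to 4.78) in OTM. H2-DMb2, a near copy of H2-DMb1 whose reads may be divided between them, was higher by 3.95-fold (2.87 to 5.42) in control and 5.10-fold (3.46 to 7.43) in OTM. Lgmn, an endosomal protease, was higher by 2.25-fold in control and 2.08-fold in OTM. The class II processing list had 12 genes with data. Of these, 8 could be compared, 4 were at least 2-fold higher in both libraries and none lower, with a median log2 ratio of 0.89 in control and 0.83 in OTM. The protease Ctss, which trims the invariant chain, was higher by 1.45-fold in control and 1.498-fold in OTM, and the thiol reductase Ifi30 by 1.52-fold in control and 1.51-fold in OTM. The rest were thinly covered. Ciita itself gave 10 UMIs in control and 3 in OTM, and the H2-DM inhibitor genes H2-Oa and H2-Ob gave 13 and 11 UMIs in control and 1 and 0 in OTM. March1, a ubiquitin ligase that takes class II off the cell surface, had log2 ratios of -0.67 and -0.70.

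Genes of type 2 conventional and monocyte-derived dendritic cells were next. Clec10a (chr11:70156197-70170834, plus strand) stood at 256 CPM in control and 143 CPM in OTM in class II-high and 47.7 and 21.5 CPM in class II-low cells, higher by 5.37-fold (4.40 to 6.56) in control and 6.64-fold (4.84 to 9.06) in OTM. Cd40 (chr2:165055627-165072948, plus strand) was higher by 3.45-fold (2.79 to 4.26) in control and 2.74-fold (2.08 to 3.57) in OTM. The ion channel genes Tmem176a and Tmem176b, which overlap at their starts on opposite strands, were higher too. Tmem176a was higher by 6.09-fold in control and 2.55-fold in OTM, and Tmem176b by 4.57-fold in control and 2.49-fold in OTM. These 4 were the list's genes at or past 2-fold in both libraries, of 8 that could be compared, and none was lower. The median log2 ratio of the list was 1.34 in control and 1.14 in OTM. Cd209a, treated below, missed the 100 UMIs in OTM. Other defining genes of the lineage were scarce. Flt3, the growth factor receptor of conventional dendritic cells, gave 18 and 6 UMIs, the integrin gene Itgax 15 and 11, the transcription factor gene Irf4 3 and 0, and Zbtb46, a transcription factor of conventional dendritic cells, 0 in both libraries. Flt3 was found in 7.41% of control and 5.19% of OTM cells, against 1.45% and 10.1% of class II-low cells, so it was not more frequent in OTM. In thinned OTM cells the shares were 2.60% and 2.95%. Itgax was found in 5.82% and 9.09%, against 1.45% and 0.466% of class II-low cells.

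Genes of other dendritic cell types were unevenly covered. Xcr1 and Clec9a, surface receptors of type 1 dendritic cells, gave 2 and 1 UMIs in control and 4 and 0 in OTM. The whole type 1 list summed to 354 and 324 CPM in control and OTM, against 253 and 180.0 CPM in class II-low cells and 49.2 and 41.0 CPM in neutrophils. Most of that sum came from Naaa and Irf8, which class II-low cells also held. Batf3, a transcription factor of that lineage, stood at 61.4 and 11.7 CPM, against 16.4 and 3.62 CPM in class II-low cells. Siglech of plasmacytoid dendritic cells gave 0 in both. Of the 9 type 1 genes 2 could be compared and of the 7 plasmacytoid genes 2, with median log2 ratios of 0.30 in control and 0.79 in OTM for type 1, and none of them was 2-fold different in both libraries. Ccr7, the receptor that guides mature dendritic cells to lymph nodes, was found in 7 control and 3 OTM cells, and 2 control cells with 28 and 20 UMIs held most of its 57 UMIs. Il4i1 was found in 4 control cells, 3 of them with Ccr7, and Ccl22 in 5, 2 of them with Ccr7. Few cells thus held UMIs of these genes of mature dendritic cells, which does not bound the share of cells that express them.

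Among costimulation genes, Cd86, which engages CD28 on T cells, was higher by 2.08-fold in control and 2.00-fold in OTM. It was the list's gene at or past 2-fold in both libraries, of 4 compared. Cd83, a maturation marker that stabilizes class II at the surface, was higher by 1.92-fold (1.73 to 2.13) in control and 3.05-fold (2.69 to 3.46) in OTM. Tnfsf9, the 4-1BB ligand, was higher by 3.30-fold in control and 1.65-fold in OTM. Cd274, the PD-L1 gene, stood 2.26-fold higher in control and at 1.04 times the class II-low level in OTM. Cd80 gave 8 and 1 UMIs. The median log2 ratio of the list was 1.12 in control and 0.86 in OTM.

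The chemokine genes Ccl4, Ccl5, Ccl7 and Cxcl16 were higher in class II-high cells, some of them through few cells. Ccl4, a chemokine that attracts monocytes and T cells, stood at 2627 CPM in control and 7423 CPM in OTM, higher by 2.69-fold (2.56 to 2.84) in control and 3.16-fold (3.05 to 3.28) in OTM. Ccl5, which attracts T cells, was higher by 4.90-fold (4.34 to 5.54) in control and 2.26-fold (2.01 to 2.54) in OTM, and 3 control cells held 59.3% of its UMIs. It was found in 22.8% of control class II-high cells (thinned 14.8%) and in 22.0% of control C1q-positive cells (thinned 18.0%). Ccl7, a CCR2 ligand, was higher by 3.85-fold (3.18 to 4.67) in control and 9.01-fold (6.82 to 11.9) in OTM, but 3 cells held 52.3% of its UMIs in control and 81.9% in OTM, and with at least 200 genes per 1000 UMIs required its OTM log2 ratio was 1.96 in place of 3.17. Cxcl16, a membrane-bound chemokine that also takes up oxidized lipoprotein, was spread more evenly, in 100 control and 45 OTM cells, and was higher by 3.77-fold (3.15 to 4.51) in control and 4.46-fold (3.55 to 5.57) in OTM. These 4 were at or past 2-fold in both libraries among the 26 inflammatory genes compared, and none was lower. The median over the 26 was 0.35 in control and 0.38 in OTM on the log2 scale, and Cxcl2, a neutrophil attractant, was at 1.10 and 1.03 times the class II-low level.

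Other genes far above the class II-low cells belonged to none of these groups. Rgs1, which dampens chemokine receptor signals, was higher by 4.30-fold (3.79 to 4.88) in control and 6.73-fold (5.79 to 7.81) in OTM. Aif1, an actin-binding protein of macrophages, was higher by 4.20-fold (3.73 to 4.74) in control and 4.02-fold (3.39 to 4.75) in OTM. Ms4a7, a membrane protein of macrophages, was higher by 4.23-fold in control and 6.76-fold in OTM, with 50.8% of its OTM UMIs in 1 cell, and Pltp, a phospholipid transfer protein, by 3.07-fold in control and 11.3-fold in OTM. Ms4a7 stood at 485 and 717 CPM in the 50 control and 5 OTM C1q-positive cells that the rule kept out, whose median class II shares were 3.69% and 5.66%. Of 5 macrophage genes compared none was 2-fold different in both libraries. Mertk, an efferocytosis receptor, gave 1 and 8 UMIs, and Adgre1, which encodes the sorted F4/80 antigen, stood at 103 CPM in control and 104 CPM in OTM, close to the class II-low levels of 99.98 and 124 CPM. The receptor gene Mrc1 gave only 30 and 13 UMIs but was found in 11.1% of control and 11.7% of OTM cells. Class II-low cells held it in 1.11% and 0.932%, and control C1q-positive cells in 26%. In thinned control cells the class II-high and class II-low shares were 4.76% and 0.557%. No thinned OTM cell of either class held Mrc1.

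Several genes of classical monocytes were lower. Fn1, fibronectin, stood at 207 CPM in control and 141 CPM in OTM against 733 and 769 CPM, lower by 3.55-fold (3.04 to 4.15) in control and 5.46-fold (4.33 to 6.999) in OTM. Chil3, a chitinase-like secreted protein, stood at 479 CPM in control and 2351 CPM in OTM against 2256 and 15573 CPM, lower by 4.71-fold (4.26 to 5.21) and 6.62-fold (6.26 to 7.02). Saa3, an acute-phase protein, was lower by 3.59-fold in control and 4.76-fold in OTM, and Hp, haptoglobin, by 3.19-fold in control and 2.82-fold in OTM. Vcan and F13a1, for versican and a clotting factor subunit, were lower by 4.84-fold in control and 3.30-fold in OTM and by 3.13-fold in control and 2.53-fold in OTM. In all, 7 of the 12 list genes were at least 2-fold lower in both libraries, and the list's median log2 ratio was -1.56 in control and -1.41 in OTM.

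Not every monocyte gene went that way. Ccr2 and Plac8, a small cysteine-rich protein, were within 1.11-fold and 1.01-fold of the class II-low level in both libraries. Ly6c2, which encodes the Ly6C antigen of inflammatory monocytes, was at 1259 CPM in control and 1053 CPM in OTM, lower by 1.82-fold in control and 1.87-fold in OTM. Ly6i, a related gene of the same family, was higher by 5.64-fold (4.83 to 6.58) in control and 2.94-fold (1.91 to 4.41) in OTM. Its reads can be shared with near copies of the Ly6 family, so its level is uncertain. Thinned class II-high cells held Ly6i in 17.5% (12.3 to 23.6) in control and 6.49% (2.14 to 14.5) in OTM. The 47 control and 25 OTM cells kept out of the class II-low cells for Ace and Treml4 held it in 27.7% (15.6 to 42.6) and 24% (9.36 to 45.1). These intervals overlapped those of class II-high cells, so Ly6i was not particular to class II-high cells.

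Among the other genes farthest below the class II-low cells, Hopx, a homeodomain cofactor, was lower by 4.87-fold in control and 5.68-fold in OTM and Cd177, a neutrophil surface antigen, by 3.87-fold in control and 4.41-fold in OTM. Rnase2a gave 6 and 2 UMIs and Sort1, sortilin, 8 and 3, and they were lower by 4.53-fold in control and 6.37-fold in OTM and by 3.66-fold in control and 4.39-fold in OTM. Ctla2a, a cysteine protease inhibitor, gave 1 UMI in each library against 41.9 and 64.7 CPM in class II-low cells, ratios of 0.0282 (0.000709 to 0.159) and 0.0302 (0.000762 to 0.170).

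The hemoglobin genes Hba-a1, Hba-a2, Hbb-bs and Hbb-bt headed the lower genes by ratio, but this came from a few class II-low cells. Hba-a1 stood at 128 CPM in control and 41.0 CPM in OTM in class II-high and 7542 and 5349 CPM in class II-low cells. Without the 9 control and 5 OTM class II-low cells in which hemoglobin made up at least 1% of UMIs, the log2 ratio of Hba-a1 moved from -5.88 and -6.99 to 0.022 and 0.56 and that of Hbb-bs from -4.79 and -6.23 to 0.24 and 0.43. All 4 had near copies among which reads may be divided.

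**Figure D2:**
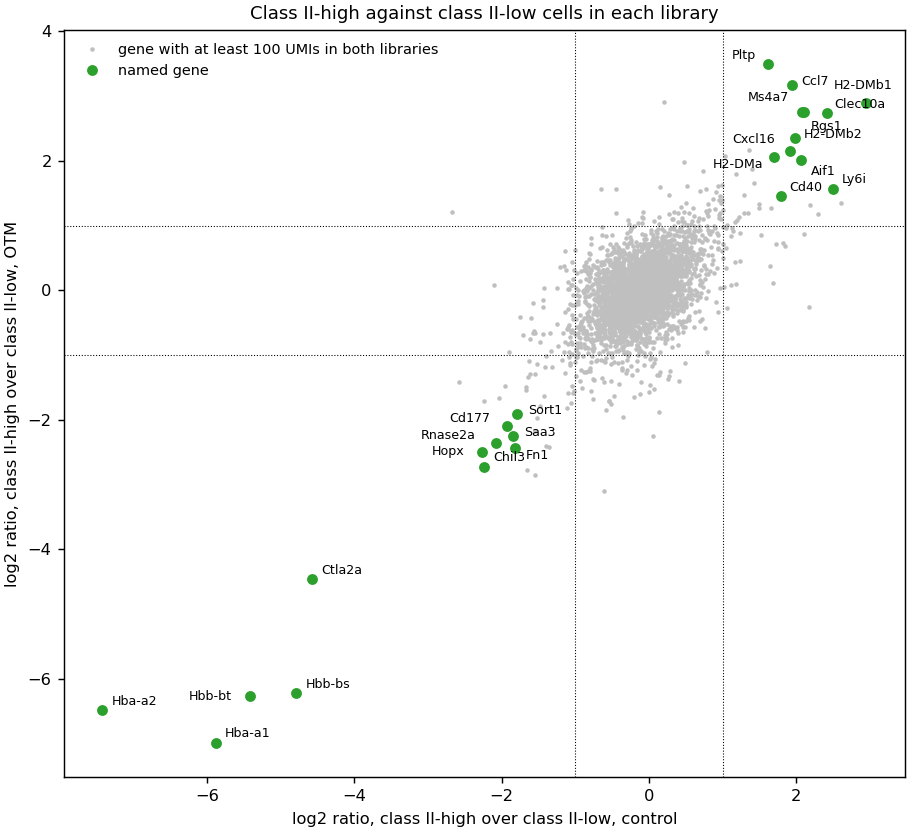
Log2 ratio of class II-high over class II-low cells in control (horizontal) and OTM (vertical) for genes outside the rule with at least 100 UMIs in both libraries, with the 24 named genes in green and 2-fold marked by dotted lines. H2-DMb1, Clec10a, Rgs1 and Ccl7 lay far up in both libraries, and Chil3, Fn1 and Saa3 far down, while the 4 hemoglobin genes at the lower left rested on few class II-low cells.

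Within the class II-high cells, levels followed the class II share. The cells were divided into 3 ranges, 1.5 to 3% (51 control and 30 OTM cells), 3 to 5% (49 and 25) and 5% or more (89 and 22). Clec10a stood at 84.9, 125 and 423 CPM from the lowest to the highest range in control and at 49.9, 125 and 292 CPM in OTM. H2-DMb1 stood at 518, 732 and 1097 CPM and at 529, 584 and 857 CPM. It was not part of the limits but belongs to the same gene family, so it is no independent reading. Cd83 and Rgs1 had the same order in both libraries, from 395 CPM (319 to 484) to 711 CPM (631 to 798) for Cd83 in control and from 494 CPM (402 to 602) to 933 CPM (782 to 1105) in OTM. Cd40 hardly varied, at 174, 178 and 198 CPM in control and 125, 155 and 153 CPM in OTM, with overlapping intervals.

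The monocyte genes ran the other way. Fn1 stood at 437, 226 and 61.9 CPM in control and 225, 101.3 and 69.6 CPM in OTM, Hp at 666, 395 and 248 CPM and 1253, 619.5 and 279 CPM, and Chil3 at 768, 689 and 203 CPM and 3575, 2484 and 487 CPM. In OTM 1 cell held 237 of the 417 Chil3 UMIs of the middle range, which stood at 1142 CPM (982 to 1322) without it. Ly6c2 was at 1481, 2028 and 733 CPM in control, highest in the middle range, and at 1393, 882 and 780.0 CPM in OTM. Plac8 dropped only in the highest range, to 4313 CPM (4113 to 4520.5) and 4199 CPM (3871 to 4548). Since a large class II share leaves a smaller share for other genes, a difference of a few percent between ranges is not read here, and the differences of Fn1, Hp, Chil3 and Plac8 between the lowest and the highest range exceeded it.

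**Figure D3:**
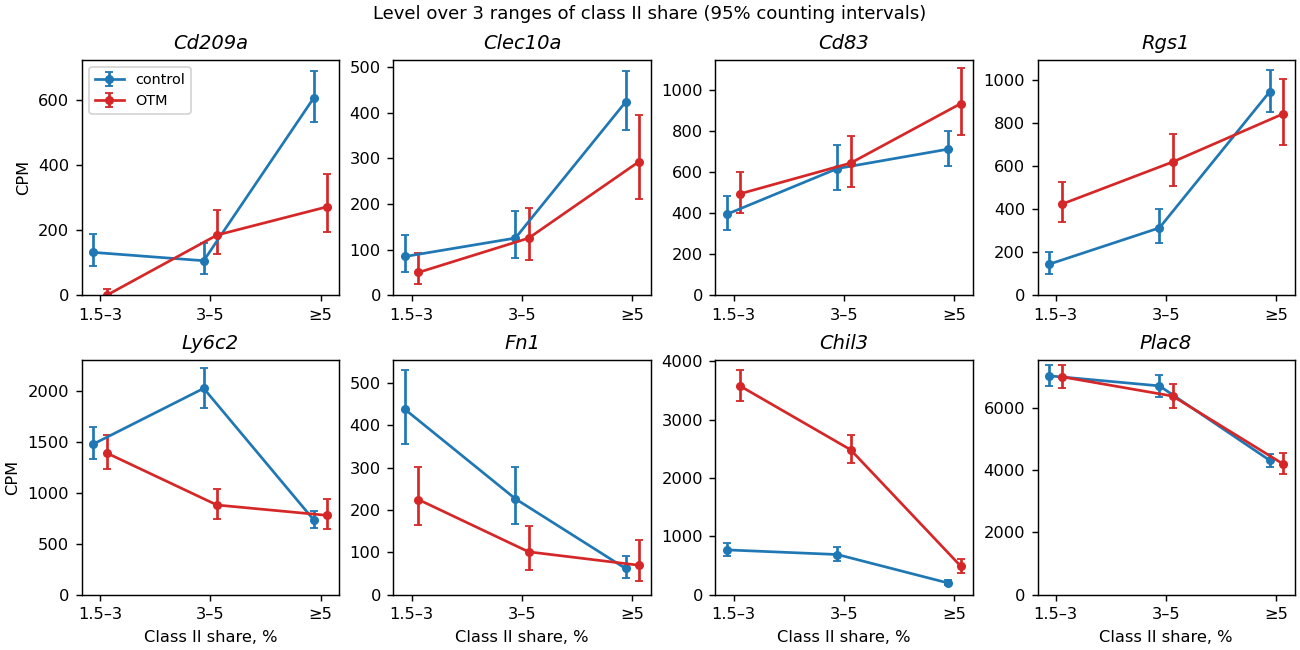
CPM of 8 genes (linear axes from 0) in class II-high cells of 3 ranges of class II share, control in blue and OTM in red, with exact Poisson 95% intervals. Cd209a, Clec10a, Cd83 and Rgs1 were highest in the upper range, and Ly6c2, Fn1, Chil3 and Plac8 were lower there than in the lowest range, in both libraries.

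Cd209a (chr8:3743397-3748984, minus strand), the mouse relative of the DC-SIGN lectin and a marker of monocyte-derived dendritic cells, divided the class II-high cells further. It gave 298 UMIs in 42 of 189 control cells and 70 UMIs in 6 of 77 OTM cells, or 352 CPM in control and 137 CPM in OTM, against 7.07 and 1.06 CPM in class II-low cells. In neutrophils it stood at 8.00 and 2.14 CPM and was found in 0.952% and 0.425% of cells. Across the ranges of class II share it stood at 132, 106 and 607 CPM in control and 0, 185 and 272 CPM in OTM. In OTM 2 cells with 30 and 27 UMIs held most of it.

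The comparison of cells with and without a Cd209a UMI was added after the data were seen. In control the 42 cells with Cd209a had a median class II share of 8.37%, and the 147 without had 3.79%, at median depths of 4120 and 4157 UMIs. Clec10a stood at 638 against 142 CPM in cells with and without Cd209a (ratio 4.48-fold, 3.39 to 5.92), and its neighbour and near copy Mgl2 at 190.3 against 4.60 CPM. Clec10a was present in 32 of the 42 cells. Flt3 gave 12 of its 18 control UMIs in these cells. The monocyte gene Ly6c2 was lower in them, at 442 against 1502 CPM, and 20 of the 42 had no Ly6c2 UMI. Plac8 stood at 2917 against 6468 CPM, Apoe, the lipid carrier of macrophages, at 1327 against 3006 CPM, and Csf1r, the receptor of the macrophage growth factor, at 144 against 313 CPM.

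The chemokine genes Ccl4 and Ccl7 were higher in the control cells with Cd209a, at 5525 against 1764 CPM and 617 against 118 CPM, but in OTM Ccl7 stood at 21.3 against 224 CPM.

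Stress and activation genes were also unequal between these cells in control. G0s2, a lipase inhibitor, stood at 638 against 167 CPM and Tnip3, an NF-kB inhibitor, at 545 against 159 CPM. The immediate early genes Fosb, Atf3 and Egr1 stood at 365 against 104 CPM, 365 against 126 CPM and 268 against 98.1 CPM. The cells without Cd209a had more of the antimicrobial protein gene Slpi, at 72.0 against 659 CPM, of Cfb, complement factor B, at 5.14 against 239 CPM, of Ear2, an eosinophil-type ribonuclease, at 25.7 against 199 CPM, and of F10, a clotting factor, at 20.6 against 155 CPM. Activation markers were closer, with a ratio of cells with over cells without Cd209a of 1.00 (0.810 to 1.24) for Cd83, 1.12 (0.709 to 1.72) for Cd86 and 0.601 (0.372 to 0.933) for Cd40.

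The 6 OTM cells with Cd209a allow little more than a look. Clec10a was at 853 against 71.0 CPM, G0s2 at 704 against 161 CPM, Tnip3 at 512 against 112 CPM and Ly6c2 at 405 against 1118 CPM, the same direction as in control. Fosb and Atf3 were not, at 42.7 against 172 CPM and 85.3 against 125 CPM, and Ccl5 stood at 1984 against 579 CPM in OTM but 159 against 781 CPM in control.

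Other control cells carried interferon-responsive genes. Ly6i was found in 47 control cells and Cxcl9, an interferon-gamma-induced chemokine of T cells, in 22, and 15 cells held both. Ly6i stood at 41.2 against 553 CPM in cells with and without Cd209a, and Cxcl9 at 15.4 against 185 CPM. Both were scarce below a class II share of 3%, at 59.4 CPM (32.5 to 99.7) and 42.4 CPM (20.4 to 78.1), against 583 CPM (484 to 697) and 217 CPM (158 to 290.1) in the range from 3 to 5%. There 1 cell held 31 of the 45 Cxcl9 UMIs, and without it Cxcl9 was at 68.9 CPM (37.7 to 116). The UMIs of both genes thus came mostly from cells without Cd209a.

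**Figure D4:**
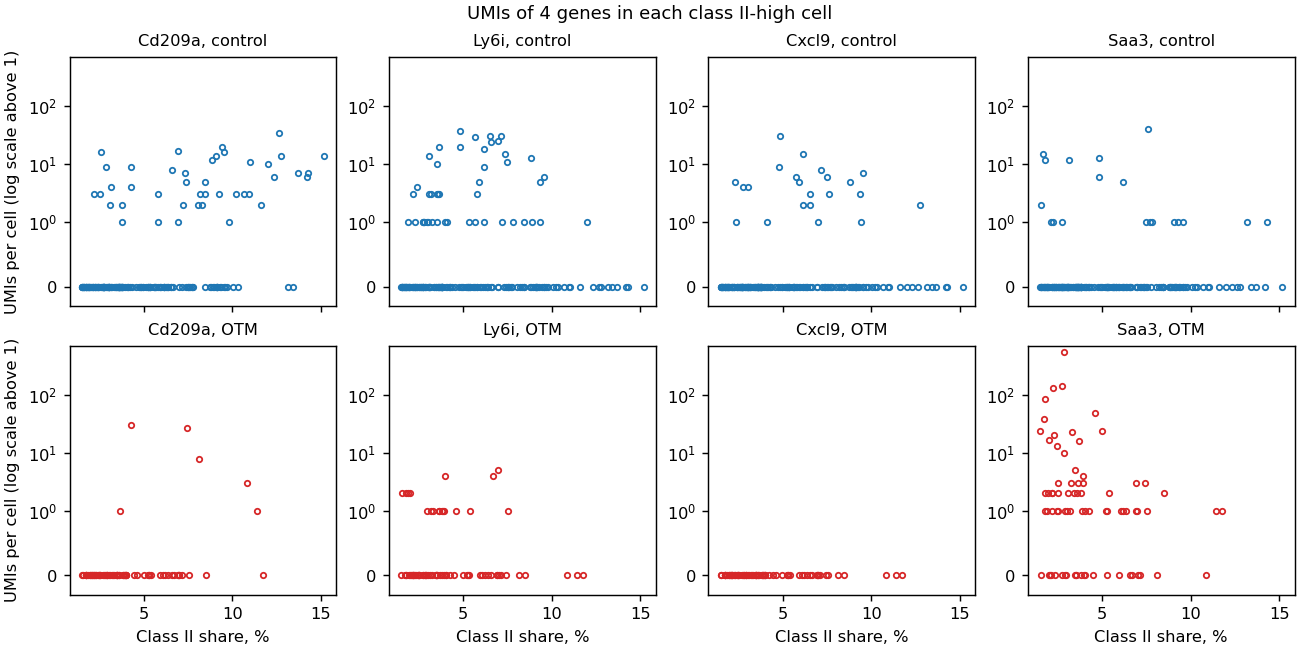
UMIs of Cd209a, Ly6i, Cxcl9 and Saa3 in each class II-high cell (vertical, log scale above 1) against its class II share (horizontal), control above and OTM below. In OTM 6 cells held Cd209a, no cell held Cxcl9, and 1 cell held 543 of the 1211 Saa3 UMIs.

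The force comparison asks how class II-high cells differed after a week of tooth movement. They made up 6.67% (5.78 to 7.65) of control and 3.75% (2.97 to 4.67) of OTM cells, while class II-low cells made up 31.7% and 31.4% and neutrophils 48.2% and 57.3%. With at least 200 genes per 1000 UMIs required in place of 200 genes per cell, the reading closest to the study's wording, the shares were 7.69% and 5.98%. The class II-high cells then numbered 188 and 75, so the shares moved because fewer other cells met the limit. All of these shares come from a sort of 1 library per condition and cannot be told apart from differences between libraries.

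Among 1462 genes with at least 100 UMIs over both libraries, 40 (2.74%) were at least 2-fold higher and 24 (1.64%) at least 2-fold lower in OTM, with a median log2 ratio of -0.01 over all of them. Of the 12 genes with the largest ratio, all 12 were also higher in OTM in class II-low cells, 11 of them at least 2-fold. Of the 12 with the smallest, 11 were also lower there, 5 of them at least 2-fold, these being Cxcl9, Ly6i, Clec4b1, Cd209a and Irf2bp2. The share of all genes past 2-fold in class II-low cells was not counted, so these counts are not read as a result about the genes. Both come from the same 2 libraries, so the class II-low values are no independent check.

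The inflammatory list had 6 of 25 genes at least 2-fold higher in OTM, 19 between and none at least 2-fold lower. Il1b, interleukin 1 beta, was at 3057 CPM in control and 7664 CPM in OTM, 2.51-fold (2.39 to 2.64) higher, and was found in 170 of 189 and 76 of 77 cells. Ccl4 was at 2.83 times (2.68 to 2.98) its control level, Ccl3 at 2.13 times (1.91 to 2.39) and Ccl9 at 2.33 times (2.10 to 2.58), all chemokines of monocytes and T cells. Il1a was at 2.63 times (1.89 to 3.69) and Il6, interleukin 6, at 2.26 times (1.73 to 2.94). The median log2 ratio of the list was 0.72. In class II-low cells the same genes stood at 2047 and 7940.3 CPM for Il1b, 51.8 and 416 CPM for Il1a, 975 and 2348 CPM for Ccl4 and 190.4 and 578 CPM for Il6 in control and OTM.

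The acute-phase gene Saa3 (chr7:46711998-46715700, minus strand) had the largest ratio. It was at 138 CPM in control and 2366 CPM in OTM, 17.1-fold (14.2 to 20.9) higher, in 19 and 54 cells. In OTM 1 cell held 44.8% of its UMIs, and without the cell with most UMIs in each library the log2 ratio was 3.85 in place of 4.09. Chil3 (chr3:106147554-106167564, minus strand) was at 479 CPM in control and 2351 CPM in OTM, 4.90-fold (4.38 to 5.50) higher. Both were still far higher in class II-low cells, at 496 and 11258 CPM for Saa3 and 2256 and 15573 CPM for Chil3. Within OTM Saa3 declined from 5237 CPM (4925 to 5564) in the lowest range of class II share to 139 CPM (85.1 to 215) in the highest. The cell with 543 UMIs lay in the lowest range, which stood at 2662 CPM (2435 to 2904) without it. In the highest range control had 134 CPM (100.4 to 174), close to OTM, but 41 of its 54 UMIs came from 1 cell. Without the cell with most UMIs in each library that range had 32.6 CPM (17.4 to 55.8) in control and 123 CPM (71.4 to 196) in OTM. Chil3 in the highest range was at 203 CPM (161 to 252) in control and 487 CPM (380.0 to 616) in OTM. The part of free RNA from Saa3-rich and Chil3-rich cells was not tested. In neutrophils Saa3 was found in 7.91% and 68.5% of cells, so the shares of class II-high cells with Saa3, 10.1% and 70.1%, are not read as shares expressing it.

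Further genes at higher levels in OTM fell into a few groups. Lrg1, a secreted glycoprotein of the acute phase, was at 39.0 CPM in control and 225 CPM in OTM, 5.77-fold (3.89 to 8.77) higher. The interferon-induced genes Ifitm1, at 62.6 CPM in control and 320.5 CPM in OTM, and Oasl1, at 44.9 CPM in control and 207 CPM in OTM, were 5.12-fold (3.74 to 7.12) and 4.62-fold (3.16 to 6.88) higher. Cxcl10, an interferon-induced chemokine, was 2.46-fold (2.05 to 2.96) higher, so the interferon-responsive genes did not all lie on 1 side. Of 10 interferon-stimulated genes compared with class II-low cells 1, Ly6a, was at least 2-fold higher in both libraries, by 2.81-fold in control and 2.39-fold in OTM. Between OTM and control, of 8 compared Cxcl10 was at or past 2-fold higher, Cxcl9 lower and 6 between, with a median log2 ratio of -0.08. Receptors for complement and modified lipoprotein were higher. C5ar1 was at 257 CPM in control and 872 CPM in OTM, 3.39-fold (2.87 to 4) higher, and Msr1 was 3.03-fold (2.11 to 4.41) higher. The immunoglobulin receptor genes Fcgr1 and Fcgr2b were at 2.10 times (1.72 to 2.58) and 2.29 times (1.71 to 3.06) their control levels. Of 11 antigen-uptake receptor genes compared Fcgr1, Fcgr2b and Msr1 were at least 2-fold higher and Cd209a and Clec4b1 at least 2-fold lower in OTM, and none of 10 was 2-fold different from class II-low cells in both libraries. The membrane protein gene Ms4a6d was at 327 CPM in control and 1126 CPM in OTM, 3.44-fold (2.98 to 3.99) higher, and its relative Ms4a8a was 4.51-fold (3.05 to 6.80) higher. Thbs1, thrombospondin 1, F10 and Sdc4, a cell surface proteoglycan, were 2.97-fold (2.24 to 3.97), 2.95-fold (2.31 to 3.78) and 2.86-fold (2.28 to 3.59) higher.

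Macrophage and processing genes at higher levels were few. Apoe was at 2621 CPM in control and 5448 CPM in OTM, 2.08-fold (1.97 to 2.20) higher, against 1291 and 5248 CPM in class II-low cells. Lgmn was 2.07-fold (1.74 to 2.48) higher. It was the 1 of 6 class II processing genes compared that passed 2-fold, and the list's median log2 ratio was -0.10. H2-DMa and H2-DMb1 were at 0.698 times (0.610 to 0.797) and 0.755 times (0.660 to 0.862) the control level.

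Genes lower in OTM included those that divided the control cells. Cxcl9 (chr5:92321347-92328079, minus strand) gave 124 UMIs in control and 0 in OTM, at least 25.0-fold lower against a floor of 3 UMIs in the OTM cells (5.86 CPM). It was found in 22 of 189 control and 0 of 77 OTM cells, which allows a share of cells with a UMI of up to 3.90% in OTM by the same floor of 3 counts (exact 95% limit 4.68%) and does not bound the share of cells that express it. Ly6i (chr15:74979534-74983430, minus strand) gave 369 UMIs in control and 32 in OTM, 6.97-fold (4.85 to 10.3) lower. In class II-low cells these genes stood at 30.5 and 1.49 CPM for Cxcl9 and 77.3 and 21.3 CPM for Ly6i, lower in OTM too.

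Cd209a was 2.57-fold (1.98 to 3.39) lower in OTM, and without the cell with most UMIs in each library the log2 ratio was -1.98 in place of -1.36. In cells thinned to 1500 UMIs each, which removes the difference in depth and left out no cell, Cd209a was found in 16.9% (11.9 to 23.1) of control and 5.19% (1.43 to 12.8) of OTM cells, and unthinned in 22.2% and 7.79%. In the highest range of class II share control had 607 CPM (533 to 688) and OTM 272 CPM (193 to 371). The lowest range also had less in OTM, where control had 132 CPM (89.4 to 187) and OTM 0 CPM (0 to 18.4). The middle range did not, with 106 CPM (66.4 to 160.5) for control and 185 CPM (125 to 262) for OTM, but 30 of its 31 OTM UMIs came from 1 cell. Without the cell with most UMIs in each library, the middle range had 63.5 CPM (33.8 to 109) in control and 6.25 CPM (0.158 to 34.8) in OTM, and the highest 528 CPM (459 to 604) and 87.8 CPM (45.3 to 153). Clec4b1 (chr6:123049962-123071555, plus strand), a C-type lectin of dendritic cells also called DCAR, gave 221 UMIs in control and 28 in OTM, in 89 and 15 cells, and was 4.77-fold (3.21 to 7.34) lower, and thinned cells held it in 27.5% (21.3 to 34.5) and 5.19% (1.43 to 12.8), against 32.0% of thinned control C1q-positive cells. It was lower in OTM at each range of class II share, at 136, 120.5 and 406 CPM in control and 15.0, 71.5 and 90.5 CPM in OTM.

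Some other dendritic cell genes leaned the same way, and of these the transcription factor gene Klf4 passed 2-fold. Klf4 was 2.09-fold (1.55 to 2.87) lower. Clec10a was at 0.557 times (0.421 to 0.729) its control level, and thinned cells held it in 21.7% (16.0 to 28.3) and 11.7% (5.49 to 21.0). Within ranges of class II share it differed less, at 125 CPM in both libraries in the middle range. In the lowest range the intervals overlapped (51.9 to 131 CPM in control and 23.9 to 91.8 CPM in OTM). The highest range, with 89 control and 22 OTM cells, had 423 CPM (362 to 492) in control and 292 CPM (211 to 395) in OTM. Tmem176a was at 0.552 times (0.440 to 0.687). Cd40 was at 0.765 times (0.571 to 1.02), an interval that includes 1, and thinned cells held it in 23.8% of control and 24.7% of OTM cells. Itgax, with too few UMIs to be compared, was found in 1.59% of thinned control and 5.19% of thinned OTM cells. Of 9 genes of the list compared 2 were at least 2-fold lower and none higher, and the median log2 ratio was -0.73, the lowest among the lists with 3 or more genes compared. The costimulation genes Cd83 and Cd86 were at 1.11 times (0.966 to 1.28) and 0.913 times (0.662 to 1.25) their control levels.

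The remaining named genes were lower in OTM with limits of their own. Gm15056, a predicted gene, gave 218 UMIs in control and 11 in OTM, but 3 control cells held 79.4% of its UMIs. Lyz1, a lysozyme gene nearly identical to the abundant Lyz2 and so uncertain, gave 159 UMIs in control and 15 in OTM, with 75.5% in 3 control cells. Fam26f, Mndal and Irf2bp2, of which the first 2 respond to interferon, were 2.80-fold (1.75 to 4.67), 2.51-fold (1.81 to 3.54) and 2.42-fold (1.63 to 3.68) lower, and Mycbp2, a ubiquitin ligase, 2.61-fold (1.79 to 3.88). Hba-a1 and Hbb-bs were 3.11-fold (1.93 to 5.22) and 2.82-fold (1.96 to 4.16) lower, from 108 and 168 UMIs in control. Tap1, the peptide transporter of class I presentation, was 2.36-fold (1.45 to 4.01) lower, the 1 of 10 class I genes compared past 2-fold. Against class II-low cells the class I list had median log2 ratios of 0.57 in control and 0.45 in OTM and no gene past 2-fold in both libraries. The class I genes H2-K1, H2-D1 and B2m were at 0.897 times (0.830 to 0.970), 1.37 times (1.31 to 1.42) and 0.994 times (0.952 to 1.04) their control levels.

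**Figure D5:**
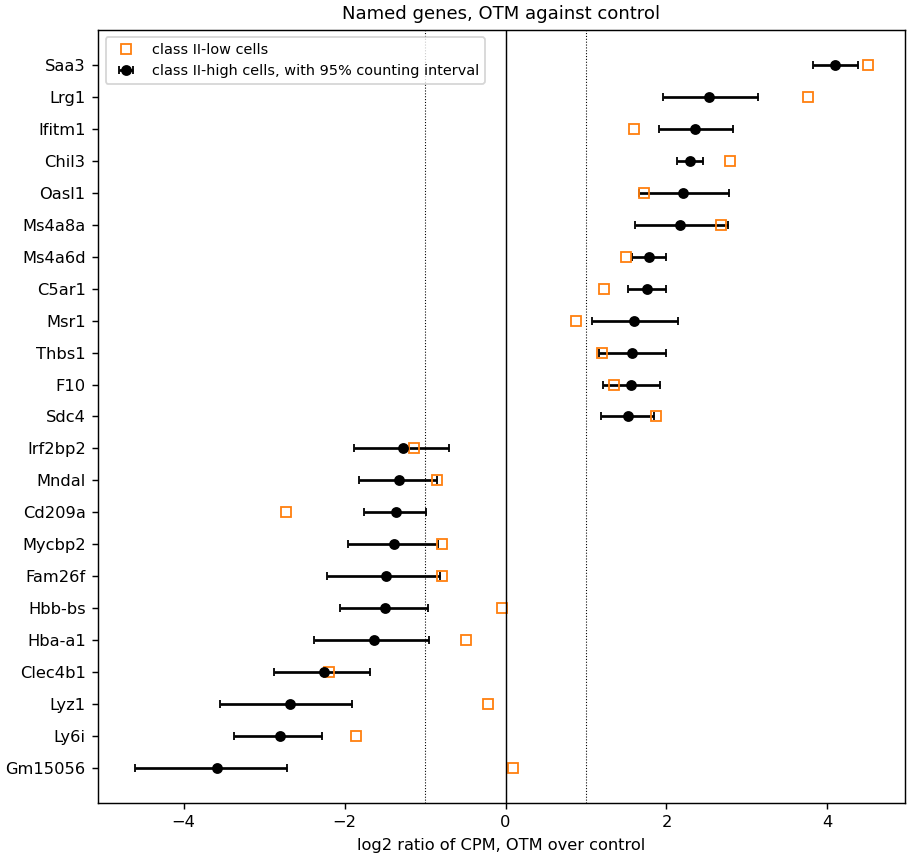
Log2 ratio of CPM, OTM over control, of the named genes in class II-high cells (black, with exact 95% counting intervals) and in class II-low cells of the same libraries (orange squares). Cxcl9, with 0 UMIs in OTM, is not drawn. Saa3 stood highest and Gm15056 lowest in class II-high cells, and Gm15056, Lyz1 and Hbb-bs were near 0 in class II-low cells.

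Other monocyte genes stood near their control level. Ccr2 was at 1.11 times (0.944 to 1.31), Plac8 at 1.06 times (1.01 to 1.11) and Ly6c2 at 0.837 times (0.753 to 0.929) the control level. Ly6c2 was found in 52.9% of control and 61.0% of OTM cells thinned to 1500 UMIs and in 71.4% and 83.1% unthinned, but neutrophils held it in 66.0% and 60.6% of thinned cells, so these shares are not read as expression. Of 11 classical monocyte genes compared Saa3 and Chil3 were at least 2-fold higher, Ly6i lower and 8 between, with a median log2 ratio of 0.22.

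None of 14 immediate early and heat shock genes was 2-fold different in both libraries between class II-high and class II-low cells, where the median log2 ratio was 0.05 in control and 0.47 in OTM. None was 2-fold different between OTM and control either, with a median of 0.10. Fos was at 0.945 times (0.828 to 1.08) its control level and Dusp1, a phosphatase induced by stress, at 1.20 times (1.08 to 1.33). Of 14 myeloid transcription factor genes none was 2-fold different from class II-low cells in both libraries, and Irf8, a factor of monocytes and dendritic cells, was higher by 1.39-fold in control and 1.54-fold in OTM. Of the integrated stress response genes 3 could be compared and none was 2-fold different in both libraries, and of the migratory dendritic cell genes 1, Relb, with log2 ratios of 0.92 and 0.34. Osteoclast genes were scarce. Ctsk, the collagenase of osteoclasts, gave 3 and 0 UMIs, and 3 of the 12 list genes could be compared, none of them 2-fold different in both libraries.

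The nonclassical monocyte genes Ace and Treml4 were scarce, and Treml4 but not Ace was found more often in thinned OTM cells. Ace and Treml4 were at 30.7 and 21.3 CPM in control and 35.2 and 62.5 CPM in OTM, against 381 and 179 CPM and 176 and 261 CPM in the 47 and 25 cells with at least 2 of their UMIs and a class II share below the limit. In thinned cells Treml4 was found in 2.12% (0.580 to 5.33) of control and 7.79% (2.91 to 16.2) of OTM class II-high cells, against 1.90% (1.25 to 2.78) and 1.19% (0.652 to 1.99) of neutrophils. Unthinned shares were 6.35% and 28.6% in class II-high cells and 4.61% and 5.44% in neutrophils. The control share of Treml4 overlapped the neutrophil background and is not read as expression. The OTM interval of Treml4 in thinned cells lay above that of neutrophils but overlapped that of control class II-high cells. Thinned class II-high cells held Ace in 7.41% (4.11 to 12.1) in control and 6.49% (2.14 to 14.5) in OTM. Neutrophils held it in 1.46% (0.897 to 2.25) and 0.595% (0.240 to 1.22), below class II-high cells in both libraries. Of the 5 list genes compared none was 2-fold different from class II-low cells in both libraries. Cells with at least 2 UMIs of Ace and Treml4 were kept out of the class II-low cells but not of the class II-high cells. Without the 10 control and 13 OTM class II-high cells that held at least 2 UMIs of Ace and Treml4, the counts of genes higher and lower than class II-low cells in both libraries were 36 and 46, and those higher and lower in OTM 41 and 22.

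Markers of other cell types were measured beside these results. Of the 12 neutrophil genes, the 10 outside the rule summed to 3032 CPM in control and 2874 CPM in OTM, against 2874 and 3719 CPM in class II-low cells and 115000 and 111100 CPM in neutrophils. The 8 B cell genes summed to 11.8 and 7.82 CPM with 5 and 7 of them at 0, the 7 T and NK cell genes in the tables to 7.08 and 13.7 CPM with 6 and 5 at 0, and the 6 basophil and mast cell genes to 1.18 and 1.95 CPM with 5 at 0 in each library. The 6 erythroid genes summed to 376.6 and 127 CPM against 15190 and 12090 CPM in class II-low cells. The 6 stromal genes summed to 145 and 78.2 CPM. So defining markers of lymphocytes and mast cells were at or near 0, and the part of neutrophil and red cell RNA in the results was not tested.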

How the data were processed

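Single-cell RNA of F4/80+CD11b+ cells was measured in 2 droplet libraries, 1 per condition. The authors deposited a table of UMI counts per gene and barcode for each library, not normalized, made with Cell Ranger 3.0.0 on mm10 (the submitters' processing notes also name Seurat 3.0.0). The tables held 27998 genes and 2863 control and 2058 OTM barcodes, fewer in both libraries than the cell numbers the study states.

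The cells and gene lists were chosen with earlier results of these data known. UMIs were summed over cells of a class and divided by their total (CPM, exact Poisson 95% intervals). Ratios had exact conditional binomial intervals and 0.5 UMIs added before log2, and shares Clopper-Pearson intervals. No test was made, since cells are not replicates and each condition had 1 library. A 2-fold difference was the size rule, among genes with at least 100 UMIs, applied to the log2 values. Named were the genes of the rule and its markers, the 12 highest and 12 lowest genes of each comparison (for class II-high against class II-low cells ranked by the log2 ratio nearer to 0 of the libraries) and the members of 23 fixed lists. Genes compared between cells with and without Cd209a, and single cells, were chosen after their values were seen. Scrublet (scanpy 1.11.5) called 0 of 2835 control and 137 of 2052 OTM cells (6.68%), and no call was removed. Python 3.11.15, numpy 2.4.6, scipy 1.17.1, pandas 2.3.3 and matplotlib 3.10.9 were used, and the calculations were tested on simulated counts. Gene positions were matched from GENCODE (GRCm38) for 297 of 297 named genes and list members in the tables. Some members of the lists are not reported here by name.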

Additional observations from a re-analysis of the deposited data

Results flagged for a closer look

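The genes below lay on opposite sides of the class II-low cells in the 2 libraries, with the counting interval of the ratio above 1 in one library and below 1 in the other. The difference between the libraries was not tested, and each library was 1 sample. Values are log2 ratios of class II-high over class II-low cells. Il1b and Il1a, which encode interleukin 1, stood at 0.58 and 0.48 in control and -0.05 and -1.13 in OTM. Il1r2, the decoy receptor of interleukin 1, stood at 0.26 in control and -1.36 in OTM, and Nlrp3, the inflammasome sensor that leads to release of interleukin 1 beta, at 0.34 and -0.22. The chemokine genes Ccl6 and Ccl9 went the other way, from -0.18 and -0.19 in control to 0.41 and 0.54 in OTM, as did the membrane protein gene Ms4a4c, from -0.28 to 0.22.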

How the results depend on the processing

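No paired analysis was possible because each condition had 1 library and no result came from a test. Of 124 recomputed shares, counts and levels 88 moved by less than their interval or 1.5 times, and of 816 recomputed single-gene values 766 moved by less than their interval, 38 moved further in the same direction and 12 reversed. The share of class II-high cells was 8.15% in control with a class II minimum of 1%. It was 5.50% in control and 2.73% in OTM with a minimum of 2.5%, and 7.69% and 5.98% with at least 200 genes per 1000 UMIs. The counts depended on the minimum of UMIs. With at least 50 UMIs 76 genes were higher and 64 lower in OTM. With at least 200, 19 genes were higher and 30 lower than in class II-low cells in both libraries, and 7 genes were lower in OTM, 5 when counted over list genes. With 1 UMI these became 581 and 247, 1591 and 1426, and for list genes 40 higher than in class II-low cells and 30 higher and 37 lower in OTM. Without thinning Clec10a was found in 37.0% and 29.9% and Ly6c2 in 71.4% and 83.1% of control and OTM cells. Levels over ranges of class II share that moved without the cell with most UMIs, an alternative chosen after seeing the data, were for Saa3 73.1, 88.6 and 32.6 CPM from the lowest to the highest range in control and 2662 and 589 CPM in the lowest and middle range in OTM, for Chil3 2899 and 1143 CPM in these ranges in OTM, for Cd209a 65.0, 63.5 and 528 CPM in control and 6.25 and 87.8 CPM in the middle and highest range in OTM, and for Ly6i and Cxcl9 417 and 68.9 CPM in the middle range in control. The reversed values were all log2 ratios of hemoglobin genes against class II-low cells. With at least 200 genes per 1000 UMIs they were 0.012 for Hba-a1 and 0.20 for Hbb-bs in control and 1.56 for Hba-a2, 0.60 for Hba-a1, 0.58 for Hbb-bt and 0.41 for Hbb-bs in OTM. Without hemoglobin-rich class II-low cells, an alternative chosen after seeing the data, as was leaving out cells with Ace and Treml4 and cells with most UMIs of a gene, they were 0.022 and 0.24 in control and 1.60, 0.56, 0.76 and 0.43 in OTM. The number of cells (77 in OTM) and of UMIs limits the precision of every gene named, and differences between libraries that are not due to force could not be separated from it.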
